A study of Mus musculus with 8 samples.

Results

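The genes of the eukaryotic translation initiation factors (eIFs) were examined in hearts with and without RNase H1. Members were all rows of the gene table that were annotated as protein coding and named *Eif*, with the 4 *Eif2ak* genes left out because they encode kinases of eIF2. This gave 51 of the 54508 genes listed, and 49 of the 51 passed the filter on low values (mean of at least 10 normalised counts across 8 libraries) and were tested. Total RNA of hearts of 24-week-old C57BL/6 mice had been sequenced from 4 mice labelled RNase H1+/+ (wild type) and from 4 mice labelled RNase H1-/- (knockout). The knockout carried loxP sites around exon 2 of *Rnaseh1* and Cre under the muscle creatine kinase promoter (*Ckmm-cre*), which is active in heart and skeletal muscle, so that the other cells of the heart kept the gene. The controls are described as floxed mice without Cre, and effects of Cre and of the loss of RNase H1 cannot be told apart. RNase H1 removes RNA that is paired with DNA, and the study asked what becomes of mitochondrial DNA and its expression without this enzyme.

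Initiation begins when eIF2, carrying GTP and the initiator tRNA, joins the small ribosomal subunit together with eIF1, eIF1A, eIF3 and eIF5. The eIF4F complex, made of the cap-binding protein eIF4E, the scaffold eIF4G and the helicase eIF4A, then brings the mRNA to that subunit. Both entry points are regulated: phosphorylated eIF2 blocks its own exchange factor eIF2B in the integrated stress response, and the eIF4E-binding proteins (4E-BPs) hold eIF4E away from eIF4G until the kinase mTORC1 phosphorylates them. Only RNA was measured here, so neither protein levels nor phosphorylation can be read from the values.

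Values are normalised counts, namely read pairs per gene divided by 1 size factor per library. Between 11896021 and 16213429 pairs fell on nuclear genes in the wild type libraries and between 24835342 and 27146119 in the knockout libraries, so depth on nuclear genes differed with genotype. *Rnaseh1* itself was counted at 129, 144, 158 and 129 in wild type and at 182, 145, 166 and 166 in the knockout, so it was not lower in the libraries labelled knockout and did not pass the test (log2 change 0.23, adjusted p = 0.114). The count sums every exon and does not show exon 2 apart. The summed count therefore gives no support to the genotype labels. All pairs, mitochondrial ones included, numbered 31810103 to 40715847 in wild type libraries and 27429878 to 30505752 in knockout libraries. Nuclear genes thus held the minority of pairs in every wild type library and most pairs in every knockout library. This goes with the labels, since the study reports lower mitochondrial transcripts in knockout hearts. By PCR the study also reports that the targeted exon was missing and the transcript reduced. Directions below rest on the labels. Markers of heart muscle cells were abundant in all libraries, but all 10 listed were lower in the knockout, with a summed level of 1753550 to 1829440 in wild type and 580399 to 681220 in the knockout. All 7 macrophage markers were higher (sum 5286 to 5924 against 13880 to 17610), and 4 of 7 fibroblast markers were higher and none lower (sum 20423 to 21150 against 38915 to 45303). Of 6 mural cell markers 4 were lower and 2 higher (sum 36419.6 to 40449.5 against 25712 to 28121), and of 6 endothelial markers 2 were lower, with overlapping sums (20874 to 24026 against 17122 to 22204). None of these markers was at 0. In bulk hearts fewer cells of a type and less RNA per cell cannot be told apart, and the part of these shifts in the values below was not tested.

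Initiation factor RNA took a larger share of nuclear reads in the knockout. The 51 genes held 0.479% to 0.481% of the nuclear pairs in wild type and 0.717% to 0.753% in the knockout, with Wilson intervals (95%, counting error only) that reached at most 0.485% in wild type and at least 0.714% in the knockout. Their summed normalised count went from 97014 ± 1003 to 126919 ± 2954 (SD, n = 4), a ratio of 1.31. The groups of libraries did not overlap on either measure. Of the 49 genes tested, 30 were higher, 9 were lower and 10 did not pass the test (limma-trend, adjusted p under 0.05), with a median log2 change of 0.36. Among all 17046 genes tested, 30.7% were higher and 28.4% lower, and the median was 0.02. The members were thus higher in 61.2% and lower in 18.4% of cases. All 4 knockout libraries lay above all 4 wild type libraries for 30 members (28.2% of all genes) and below them for 8 (26.5% of all genes). A log2 change of at least 1 was reached by 10 members that were higher (11.5% of all genes) and by 1 that was lower (10.8% of all genes).

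These counts depend on how the libraries are scaled. With equal totals of nuclear pairs the median of all genes moved by 0.23, and 39 members were then higher and 5 lower, against 43.1% and 19.2% of all genes. With equal totals of all pairs, mitochondrial ones included, it moved by 1.43, and 49 members were higher and 0 lower by limma-trend, none having a negative change, against 87.7% and 3.33% of all genes. Measured relative to those shifts, the counts were 30 higher with 9 lower and 30 higher with 8 lower. This centring was not planned. It takes out the shift of the median gene and so returns nearly the authors' scale, which makes the likeness to the main counts built in. Directions below hold for the authors' scaling. Every fall named among the members would be a rise under equal library totals. That scaling also lifts nuclear genes because far fewer mitochondrial pairs were counted in the knockout libraries.

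**Figure D1:**
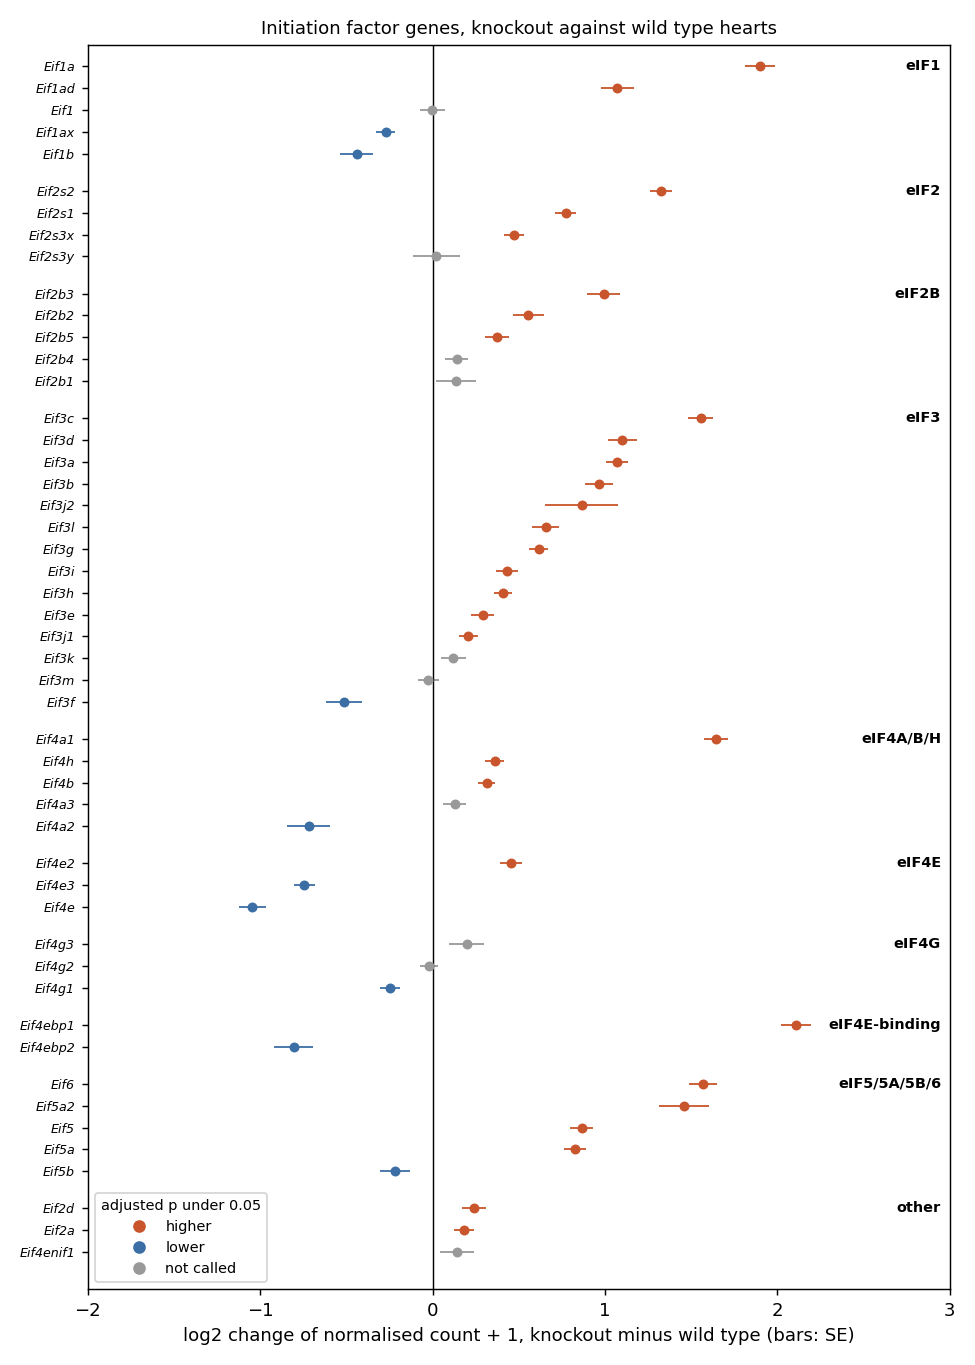
Log2 change of each of the 49 tested initiation factor genes (knockout minus wild type, log2 of normalised count + 1, n = 4 per group), with bars for the standard error, grouped by complex and coloured by the test. The points run from -1.04 for *Eif4e* to 2.11 for *Eif4ebp1*, with 30 higher and 9 lower. Those 9 turn positive when library totals, which include mitochondrial pairs, are made equal.

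The complexes differed in how far their summed normalised counts moved. The sum of the 3 genes of the 4E-BPs went from 1716 ± 82.4 to 4184 ± 303 (SD, n = 4), a ratio of 2.44. Sums for the factors around subunit joining (eIF5, eIF5A, eIF5B and eIF6), for eIF3 and for eIF2 were higher by ratios of 1.74, 1.72 and 1.59, and those for eIF2B, eIF1 and the group of eIF4A, eIF4B and eIF4H by 1.3, 1.27 and 1.26. The eIF4E genes together went from 4533 ± 219.6 to 3152 ± 139 (SD, n = 4), a ratio of 0.695, and the eIF4G genes stood at 0.939 of wild type. None of these sums overlapped between the genotypes. Within a sum the most abundant genes weigh most, whereas the median log2 change per complex counts each tested gene once. That median was 0.65 for the 2 tested 4E-BP genes, which moved in opposite directions, 0.31 for the group of eIF4A, eIF4B and eIF4H, -0.02 for eIF4G and -0.74 for eIF4E. Sums for eIF4E and eIF4G would also exceed wild type under equal library totals, the shift there being larger than either difference.

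The cap-binding step held both ends of this range. The 4E-BP gene *Eif4ebp1* rose 4.32-fold and *Eif4e* fell 2.07-fold, and the other 4E-BP gene that could be tested, *Eif4ebp2*, fell as well. *Eif4ebp1* encodes the main mTORC1-regulated inhibitor of eIF4E, lies on chromosome 8 from 27260329 to 27276674 (plus strand) in GRCm38, and was counted at 768, 869.9, 932 and 841 in wild type and 3628, 3208, 4044 and 3867 in the knockout. Every knockout heart was far above every wild type heart, with the second knockout heart lowest of its group. Its mean went from 853 ± 67.9 to 3687 ± 362 (SD, n = 4), a log2 change of 2.11 ± 0.08 (SE, adjusted p = 1.65e-08). It was the largest rise among the 49 members tested.

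*Eif4ebp2*, the paralogue that is prominent in brain and also inhibits eIF4E, stood at 952, 936, 745 and 779 in wild type and 498, 562, 413 and 477 in the knockout. All knockout libraries were below all wild type libraries, with the third knockout heart lowest. The log2 change was -0.81 ± 0.11 (SE, adjusted p = 0.000132). *Eif4ebp3*, the remaining member of that family, was near the limit of detection with 29 read pairs in the 4 wild type and 56 in the 4 knockout libraries. Its normalised counts of 4.51, 18.5, 7.72 and 10.4 in wild type and 13.9, 7.40, 10.4 and 5.67 in the knockout overlapped, and it was not tested. The gene shares its locus with *Ankhd1*, so that its few pairs are uncertain.

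*Eif4e*, the cap-binding subunit, lies on chromosome 3 from 138526179 to 138559696 (plus strand) and was counted at 2449, 2251, 2812 and 2543 in wild type and 1293, 1281, 1099 and 1194 in the knockout. The groups were far apart, and the third knockout library was again the lowest. The log2 change was -1.04 ± 0.08 (SE, adjusted p = 1.54e-06), the largest fall among the members. *Eif4e2*, whose product 4EHP binds the cap without eIF4G and is known as a repressor of translation, was counted at 914, 938, 916 and 998 in wild type and 1368, 1228, 1228 and 1342 in the knockout. All knockout values were higher, and the change was 0.45 ± 0.06 (SE, adjusted p = 0.000128). *Eif4e3*, a further cap-binding paralogue, stood at 1046, 1105, 1043 and 1117 in wild type and 617, 648, 630.2 and 679.6 in the knockout. All 4 knockout values were lower, with a log2 change of -0.74 ± 0.06 (SE, adjusted p = 2.53e-06). No pair fell on the germline paralogue *Eif4e1b* in any of the 8 libraries, where a count of 0 allows up to 3 pairs.

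Levels per kilobase of exon allow a rough comparison between genes. The length used is the union of all annotated exons of a gene, not that of the transcript in use. In normalised counts per kb, *Eif4e* went from 418 to 203, *Eif4ebp1* from 388 to 1679 and *Eif4ebp2* from 147 to 84.3. On this measure *Eif4e* and *Eif4ebp1* were at similar levels in wild type, and in the knockout the inhibitor's RNA was several times that of its target. Within each library the log2 ratio of the *Eif4ebp1* count to the *Eif4e* count was -1.67, -1.37, -1.59 and -1.60 in wild type and 1.49, 1.32, 1.88 and 1.69 in the knockout. Each knockout heart was above each wild type heart, with a change of 3.15 (exact permutation test over 70 assignments of 8 libraries, p = 0.0286, the smallest the design allows, adjusted p = 0.0408 over 10 ratios). The log2 ratio of *Eif4ebp1* to *Eif4ebp2* changed by 2.91 in the same way (exact permutation p = 0.0286, adjusted p = 0.0408). The ratio of *Eif4ebp2* to *Eif4e*, both of which fell, had overlapping groups and changed by 0.24 (exact permutation p = 0.257, adjusted p = 0.257). Such ratios within a library hardly depend on the size factor, which enters only through the pseudocount of 1. Where the first gene lay above and the second below in every knockout library, their ratio had to separate as well. Its p-value then follows from the single genes and adds no support. That holds for *Eif4ebp1* against *Eif4e* and against *Eif4ebp2*.

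**Figure D2:**
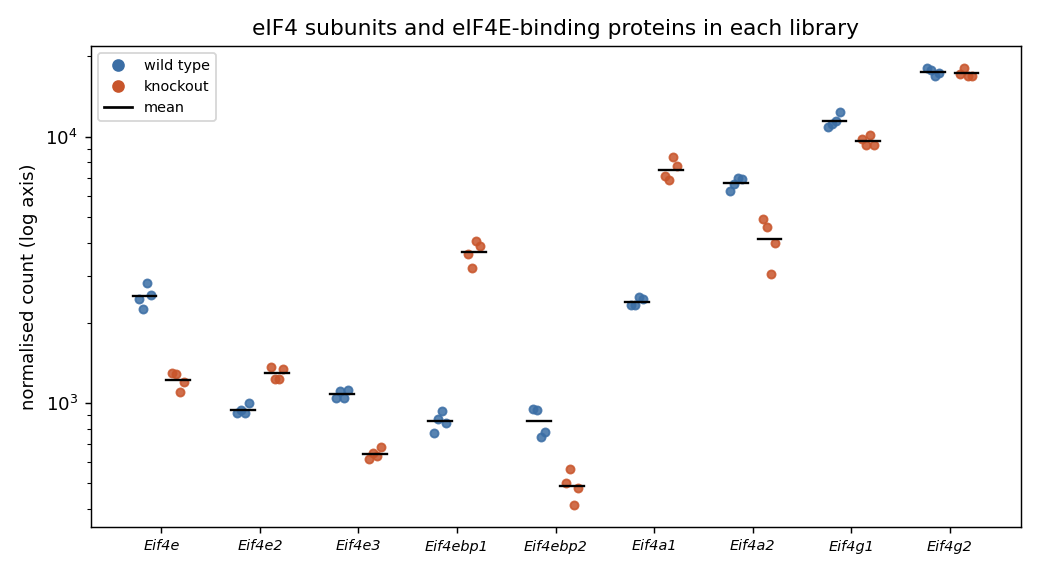
Normalised counts (log axis) of eIF4 and 4E-BP genes in the 4 wild type and 4 knockout libraries, with a line at each mean. *Eif4ebp1* and *Eif4a1* lie apart upwards in the knockout and *Eif4e*, *Eif4e3*, *Eif4ebp2* and *Eif4a2* downwards, whereas *Eif4g2* overlaps. The downward shifts turn upward when library totals, which include mitochondrial pairs, are made equal.

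The helicase genes *Eif4a1* and *Eif4a2* moved in opposite directions. Both encode eIF4A, the RNA helicase of eIF4F, with *Eif4a1* usually the form of growing cells and *Eif4a2* that of resting tissue. *Eif4a1*, on chromosome 11 from 69666936 to 69672423 (minus strand), was counted at 2332, 2330.1, 2494 and 2445 in wild type and 7096, 6841, 8394 and 7734 in the knockout. No knockout library came near the highest wild type library. The mean went from 2400.0 ± 82.3 to 7516 ± 695 (SD, n = 4) with a log2 change of 1.64 ± 0.07 (SE, adjusted p = 2.19e-08). *Eif4a2*, on chromosome 16 from 23107444 to 23114136 (plus strand), was counted at 6252, 6638, 6982 and 6918 in wild type and 4903, 4560.3, 3058 and 3998 in the knockout. The groups did not overlap, but the knockout hearts were spread, with the third furthest below the wild type mean of 6698. The log2 change was -0.72 ± 0.13 (SE, adjusted p = 0.000596).

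Per kb of exon *Eif4a1* went from 554 to 1734 and *Eif4a2* from 1255 to 774, so that *Eif4a2* led in wild type and *Eif4a1* in the knockout. Within libraries the log2 ratio of *Eif4a1* to *Eif4a2* was -1.42, -1.51, -1.48 and -1.50 in wild type and 0.53, 0.58, 1.46 and 0.95 in the knockout, a change of 2.36 (exact permutation p = 0.0286, adjusted p = 0.0408). As the genes separated in opposite directions, the ratio had to separate and its p-value adds no support. The processed pseudogene *Eif4a-ps4*, which is no member, was counted at 542 to 577 in wild type and at 1593 to 1945 in the knockout, a log2 change of 1.63 ± 0.07 (SE, adjusted p = 2.68e-08). Pairs that match both this copy and *Eif4a1* cannot be assigned to one of them, so both levels are uncertain. *Eif4a3*, which despite its name belongs to the exon junction complex that marks spliced mRNA, did not pass the test (0.13, adjusted p = 0.121). The helicase cofactors *Eif4b* and *Eif4h* were higher by 0.31 and 0.36.

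Promoter sequences of these 3 genes are shown because the paralogues moved in opposite directions while *Eif4e* fell. RefSeq windows from 250 bases before to 50 after a gene start (GRCm38.p6) were found for 39 of the 51 members, 51 windows in all. They were searched on both strands for CACGTG, the E-box read by MYC and TFE factors, and for TGATGNAA, the core of the element read by ATF4 with C/EBP partners. Windows are given 5′ to 3′ on the strand of the gene, with CACGTG in capitals, for *Eif4a1* at chr11:69672374-69672673 (minus strand), for the downstream of the 2 starts of *Eif4e* at chr3:138527018-138527317 (plus strand) and for *Eif4a2* at chr16:23107218-23107517 (plus strand).
Eif4a1: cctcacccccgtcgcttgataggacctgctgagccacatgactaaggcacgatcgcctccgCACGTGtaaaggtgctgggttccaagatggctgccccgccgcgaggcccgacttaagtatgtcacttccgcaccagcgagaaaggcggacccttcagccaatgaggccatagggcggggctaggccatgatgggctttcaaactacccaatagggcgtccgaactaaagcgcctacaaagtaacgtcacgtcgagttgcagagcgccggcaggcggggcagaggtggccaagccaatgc
Eif4e: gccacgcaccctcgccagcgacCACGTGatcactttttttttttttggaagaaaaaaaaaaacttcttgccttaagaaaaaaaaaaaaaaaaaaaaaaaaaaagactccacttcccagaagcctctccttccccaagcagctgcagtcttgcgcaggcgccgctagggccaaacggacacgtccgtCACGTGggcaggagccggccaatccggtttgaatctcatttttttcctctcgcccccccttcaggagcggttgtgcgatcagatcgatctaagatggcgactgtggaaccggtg
Eif4a2: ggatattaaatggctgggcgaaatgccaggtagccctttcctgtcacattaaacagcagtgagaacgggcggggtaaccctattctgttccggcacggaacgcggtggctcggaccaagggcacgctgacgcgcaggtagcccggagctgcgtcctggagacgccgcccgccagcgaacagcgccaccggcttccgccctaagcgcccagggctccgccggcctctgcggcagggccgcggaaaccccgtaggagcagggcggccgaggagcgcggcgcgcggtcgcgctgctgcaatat

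The E-box lay 189 bases before the start of *Eif4a1* and both 228 and 64 bases before that of *Eif4e*, and the *Eif4a2* window and the upstream window of *Eif4e* held none. CACGTG was found for 10 of the 39 members (25.6%), against 8.09% of all 27025 genes with a window and 11.4% of the 11167 of them that were tested here. Counted by window it was 23.5% of 51 against 7.15% of 32817. It was present in 5 of 22 members that were higher (22.7%; *Eif3a*, *Eif4a1*, *Eif4h*, *Eif5a* and *Eif5a2*) and in 4 of 8 that were lower (50%; *Eif1b*, *Eif3f*, *Eif4e* and *Eif4g1*), so that it went with neither direction alone. TGATGNAA was found only for *Eif2s3x* among the 39 (2.56%), against 4.51% of all genes with a window and 2.78% of those tested here, and the motifs shared no member window. No window was available for *Eif4ebp1*, *Eif1a*, *Eif6*, *Eif2b3*, *Eif3e*, *Eif3h*, *Eif3i*, *Eif3j2*, *Eif4e3*, *Eif4e1b*, *Eif4g2* and *Eif4ebp3*, so these were not searched for either motif. Base composition was not matched, and a match of letters is a description of the window and not of binding.

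The scaffold genes showed small changes. Per kb of exon *Eif4g2* and *Eif4g1* had the highest mean levels of the family in wild type, at 1725 and 1566, and stood at 1698 and 1319 in the knockout. *Eif4g1* and *Eif4g2* held 29.9% ± 0.47 of the members' summed count in wild type hearts and 21.2% ± 0.88 in those of the knockout (SD, n = 4). *Eif4g1*, which joins eIF4E, eIF4A and eIF3, was counted at 10859.8, 11133, 11427 and 12328 in wild type and 9771, 9333, 10128 and 9287 in the knockout. The knockout hearts were all lower, by a small margin, and the log2 change was -0.25 ± 0.06 (SE, adjusted p = 0.00384). *Eif4g2*, whose product DAP5 lacks the eIF4E-binding part and serves cap-independent initiation, was counted at 18056, 17859, 16878 and 17352 in wild type and 17252, 18125, 16845 and 16843 in the knockout. The groups overlapped almost wholly, and the change of -0.02 did not pass the test (adjusted p = 0.733). *Eif4g3* was counted at 1616, 1507, 1244 and 1550.4 in wild type and 1919.6, 1775, 1471 and 1622 in the knockout, with overlapping groups and a change of 0.20 ± 0.10 (SE, adjusted p = 0.117). The log2 ratio of *Eif4g2* to *Eif4g1* changed by 0.22 without overlap (exact permutation p = 0.0286, adjusted p = 0.0408). Its groups almost touched, at 0.7334 in the first wild type library and 0.7339 in the third knockout library. The log2 ratio of *Eif4g1* to *Eif4g3* changed by -0.45 with overlap (exact permutation p = 0.0571, adjusted p = 0.0635).

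**Figure D3:**
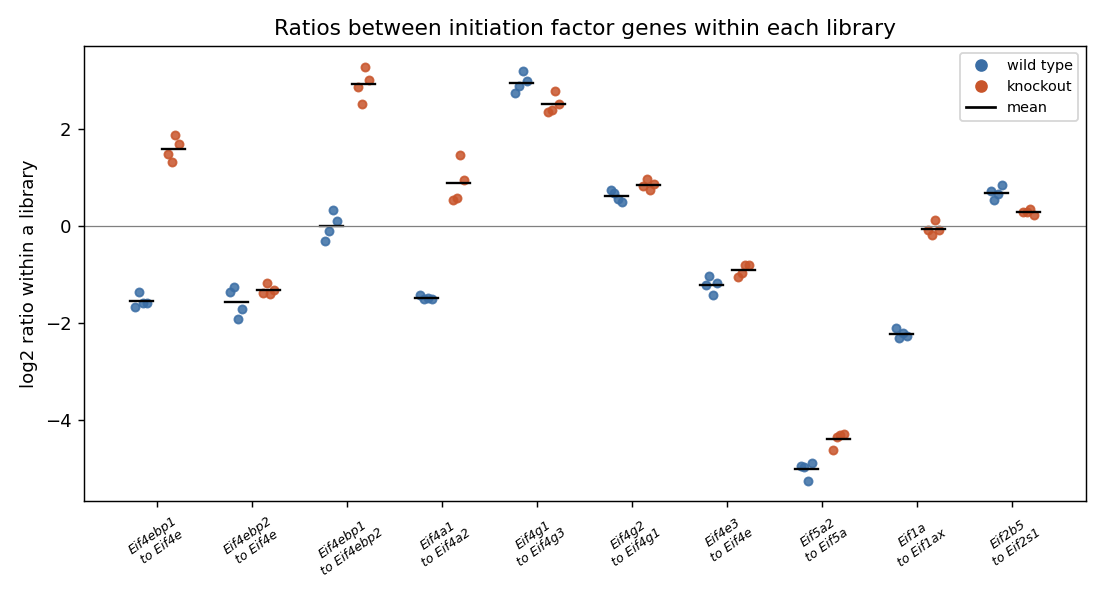
Log2 ratios of normalised counts between pairs of initiation factor genes within each of the 4 wild type and 4 knockout libraries, with a line at each mean. The ratios of *Eif4ebp1* to *Eif4e* and of *Eif4a1* to *Eif4a2* lie far apart between genotypes (changes of 3.15 and 2.36), and 3 of the 10 ratios overlap.

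The subunits of eIF2, which delivers the initiator tRNA, were higher with the exception of the Y-linked gene. Of the 4 genes 3 were higher (30.7% of all genes) and none had a negative change, with a median of 0.62. *Eif2s2*, the beta subunit, was counted at 911, 842, 904 and 970.3 in wild type and 2188, 2177, 2296 and 2432 in the knockout. All knockout libraries stood far above all wild type libraries. The log2 change was 1.33 ± 0.06 (SE, adjusted p = 5.69e-08), the largest of the complex. *Eif2s1*, the alpha subunit that carries the phosphorylation site of the integrated stress response, was counted at 809, 922, 901 and 889 in wild type and 1453, 1485, 1533 and 1543 in the knockout. The groups stood well apart and the change was 0.77 ± 0.06 (SE, adjusted p = 1.86e-06).

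The gamma subunit is encoded by a pair of genes on the sex chromosomes. *Eif2s3x* was counted at 1153, 1086, 1165 and 1164 in wild type and 1553, 1520.3, 1692 and 1569 in the knockout, with the second wild type library lowest. All knockout values were higher, by 0.47 ± 0.06 (SE, adjusted p = 5.16e-05). *Eif2s3y* was counted in all 8 libraries, at 1259.8, 1215, 1383 and 938 in wild type and 994, 1401, 1125 and 1349 in the knockout. Its groups overlapped and its change of 0.02 ± 0.14 (SE, adjusted p = 0.900) did not pass the test. The X-linked copy thus rose where the Y-linked copy gave no detectable change, although the difference between the pair was not tested and the standard error of the Y-linked gene was the larger.

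Genes of eIF2B, the exchange factor that reloads eIF2 with GTP, showed smaller changes, with a median of 0.38. Of the 5 genes 3 were higher (30.7% of all genes) and none had a negative change. *Eif2b3*, the gamma subunit, was counted at 287, 242, 266 and 259 in wild type and 467, 493, 586 and 558 in the knockout. The groups did not overlap and the change was 0.99 ± 0.10 (SE, adjusted p = 8.69e-06). *Eif2b5*, the catalytic epsilon subunit, stood at 1324, 1332, 1419.8 and 1590.1 in wild type and 1772, 1805, 1946 and 1813 in the knockout. All knockout libraries were higher, with a change of 0.38 ± 0.07 (SE, adjusted p = 0.000962). Of the genes for the regulatory subunits, *Eif2b2* was higher by 0.56, and *Eif2b4* and *Eif2b1* were at 0.14 and 0.14 and did not pass the test. *Eif2b1* had the smaller change of the complex, with 439, 447, 471 and 513 in wild type and 449.6, 465, 639.9 and 518 in the knockout, where the third knockout heart alone was well above the rest. Within libraries the log2 ratio of *Eif2b5* to *Eif2s1* was 0.71, 0.53, 0.66 and 0.84 in wild type and 0.29, 0.28, 0.34 and 0.23 in the knockout. The catalytic subunit of the exchange factor was thus lower relative to the alpha subunit of its substrate in every knockout heart, a change of -0.40 (exact permutation p = 0.0286, adjusted p = 0.0408).

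eIF3 is the largest factor, a scaffold on the small ribosomal subunit. Of its 14 genes 11 were higher (30.7% of all genes), 1 was lower (28.4% of all genes) and 2 did not pass the test. The median was 0.52. The changes were uneven across subunits. *Eif3c* was counted at 2820.2, 2759, 2909 and 2785 in wild type and 7675, 7471, 8855 and 9254 in the knockout. The knockout hearts were all far higher, the fourth most of all. The log2 change was 1.55 ± 0.07 (SE, adjusted p = 4.69e-08). *Eif3a*, the largest subunit, stood at 4558, 4283, 4168 and 4158 in wild type and 8732, 8477, 8964 and 9952 in the knockout. All 4 knockout hearts were higher by a similar step. The change was 1.07 ± 0.06 (SE, adjusted p = 1.94e-07). *Eif3d*, which can bind the cap of some mRNAs itself, was counted at 1043, 986, 1262 and 1096 in wild type and 2386, 2123, 2502 and 2386 in the knockout. Its groups did not overlap and the change was 1.10 ± 0.08 (SE, adjusted p = 1.45e-06).

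*Eif3f* was the only subunit gene that was lower, at 1216, 1119, 1043 and 998 in wild type and 857, 639, 839 and 742 in the knockout. No knockout library reached the lowest wild type library. The change was -0.51 ± 0.10 (SE, adjusted p = 0.00147). Higher, by less than *Eif3a*, *Eif3c* and *Eif3d*, were *Eif3b* (0.96), *Eif3l* (0.66), *Eif3g* (0.61), *Eif3i* (0.43), *Eif3h* (0.41), *Eif3e* (0.29) and *Eif3j1* (0.21), all past the test. *Eif3k* (0.12) and *Eif3m* (-0.03) did not pass it. *Eif3j2* was higher by 0.86 ± 0.21 (SE, adjusted p = 0.00509) although its groups overlapped, and *Eif3j1* and *Eif3j2* are near-identical copies with pairs that match both, so both levels are uncertain.

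Grouped by kinship, a choice made after the values were seen and therefore untested, the 5 subunits that also form eIF3 in budding yeast (a, b, c, g and i) were all higher, with a median of 0.96. Of the 7 subunits d, e, f, h, k, l and m, 4 were higher and 1 was lower, with a median of 0.29. Per kb of exon the wild type means of the 14 genes ran from 39.7 for *Eif3j2* to 970.2 for *Eif3h*, and *Eif3c* went from 803 to 2368, past *Eif3h* at 1286 in the knockout. In the knockout *Eif3c* stood at 2368 ± 249 and *Eif3f* at 266 ± 34.8 normalised counts per kb (SD, n = 4), against 803 ± 18.7 and 378 ± 33.0 in wild type.

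**Figure D4:**
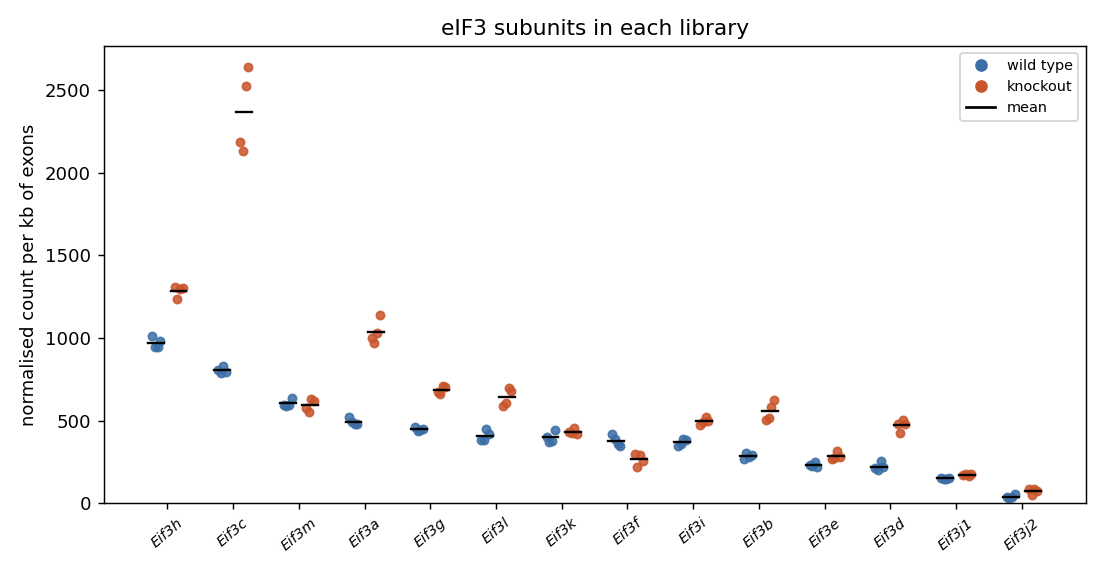
Normalised counts per kb of exon of the 14 eIF3 subunit genes in the 4 wild type and 4 knockout libraries, ordered by wild type mean, with a line at each mean. *Eif3c* goes from 803 to 2368, the largest step among the 14, while *Eif3f* alone is lower past the test. That fall becomes a rise when library totals, which include mitochondrial pairs, are made equal.

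The genes of eIF1 and eIF1A hold the small subunit open for scanning. Of these 5 genes 2 were higher and 2 lower, with a median of -0.000673. Such counts are not far from the shares of all genes (30.7% higher, 28.4% lower). *Eif1a* was counted at 332, 307, 321 and 318 in wild type and 1140.1, 1081, 1411 and 1175 in the knockout. Each knockout heart had more than 3 times the count of any wild type heart. The log2 change was 1.90 ± 0.09 (SE, adjusted p = 3.85e-08). *Eif1ax*, the X-linked gene for the same factor, was lower by a small step, from 1501 ± 38.6 to 1243 ± 39.2 (SD, n = 4), a change of -0.27 ± 0.05 (SE, adjusted p = 0.00132). The log2 ratio of *Eif1a* to *Eif1ax* was -2.12, -2.31, -2.22 and -2.27 in wild type and -0.08, -0.18, 0.12 and -0.09 in the knockout, a change of 2.17 (exact permutation p = 0.0286, adjusted p = 0.0408). Here too the genes separated in opposite directions, so the p-value of their ratio adds no support. Per kb of exon *Eif1a* went from 76.7 to 288 and *Eif1ax* from 285 to 236, so the copies were near parity in the knockout, and their similar sequences make both levels uncertain.

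*Eif1ad*, which encodes a protein with an eIF1A-like domain, was counted at 451, 498, 509.8 and 584 in wild type and 1078, 943, 1195 and 1075 in the knockout. All knockout values were higher, with a change of 1.07 ± 0.10 (SE, adjusted p = 4.8e-06). *Eif1*, the factor that guards start codon choice, overlapped between groups with a change of -0.000673 (adjusted p = 0.994). Its paralogue *Eif1b* was counted at 385, 434, 496 and 399 in wild type and 319, 309, 329.7 and 298 in the knockout. All knockout libraries were below all wild type libraries, with a change of -0.44 ± 0.09 (SE, adjusted p = 0.00223).

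Of the factors that act at and after subunit joining, 4 of 5 genes were higher (30.7% of all genes). The other was lower (28.4% of all genes), and the median was 0.86. *Eif6*, which keeps the large subunit from joining too early and serves in its assembly, was counted at 421, 428, 443 and 425 in wild type and 1241, 1121, 1459.7 and 1300.0 in the knockout. The groups were far apart, and the change was 1.57 ± 0.08 (SE, adjusted p = 9.28e-08). *Eif5*, which makes eIF2 hydrolyse its GTP at the start codon, was higher by 0.86 ± 0.07 (SE, adjusted p = 1.91e-06), and *Eif5a*, the hypusine-bearing factor that relieves stalled ribosomes, by 0.83 ± 0.06 (SE, adjusted p = 1.69e-06).

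*Eif5a2*, the paralogue of *Eif5a* that is low in most adult tissues, was counted at 91.7, 82.6, 69.5 and 93.2 in wild type and 193, 217, 267 and 257 in the knockout. It was low in all hearts and did not overlap between groups, with a change of 1.46 ± 0.15 (SE, adjusted p = 1.04e-05). The log2 ratio of *Eif5a2* to *Eif5a* changed by 0.63, from a mean of -5.03 to -4.40 (exact permutation p = 0.0286, adjusted p = 0.0408), so that the rarer paralogue gained relative to the common one. *Eif5b*, the GTPase that joins the subunits, was counted at 1264, 1265, 999.6 and 1096 in wild type and 959.8, 1028, 939 and 1031 in the knockout. Its groups overlapped and its change of -0.22 ± 0.09 (SE, adjusted p = 0.0474) was close to the threshold. It lost the call when any library other than the third wild type library was left out, with adjusted p from 0.0587 to 0.133.

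The 3 remaining members changed little. *Eif2d*, which can deliver tRNA to the ribosome without GTP, was counted at 669, 562, 604 and 628 in wild type and 736, 729.5, 708 and 736 in the knockout. All knockout values were higher, with a change of 0.24 ± 0.07 (SE, adjusted p = 0.0121). *Eif2a*, an initiator tRNA-binding protein that is distinct from the eIF2 alpha subunit, was higher by 0.18 ± 0.06 (SE, adjusted p = 0.0179), and without the fourth wild type library it was at 0.16 (adjusted p = 0.0507). *Eif4enif1*, the eIF4E transporter 4E-T, was counted at 934, 996, 983 and 957 in wild type and 972, 964, 1335 and 1039 in the knockout. Only the third knockout heart stood above the wild type range by a wide margin, and the change of 0.14 did not pass the test (adjusted p = 0.241).

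Among the knockout hearts, the third had the highest value for 18 of the 30 members that were higher and the second the lowest for 17 of them. That order was not counted over all genes, so it cannot be read as a trait of the members. Erythroid markers also varied among knockout hearts, with a summed level of 5278 to 18620.5 against 9015 to 10841 in wild type. The globin gene *Hbb-bs* was at 3063, 3486, 11850 and 10306 in the knockout. None of the erythroid markers passed the test between genotypes, and any part of blood content in the order was not tested. Without the third knockout heart 32 members were higher and 8 lower, among them all 30 of the higher members and all of the lower ones except *Eif5b*.

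Related genes from lists beside the members are given for comparison. Their counts stand against 30.7% higher and 28.4% lower among all genes and were not tested against these shares. Of 19 other genes with a role in initiation, 11 were higher and 3 lower, with a median of 0.27. The largest rise was that of *Mknk1*, a kinase of eIF4E, at 1.20 and the largest fall that of *Pdcd4*, an inhibitor of eIF4A, at -0.70. Of 14 genes of mTORC1 and its control, 7 were higher and 5 lower, from *Sesn1* at -0.93 to *Sesn2* at 3.68, both encoding sestrins that restrain mTORC1. Of 7 cytosolic elongation factor genes 3 were higher and 1 lower, and as with eIF4A the extremes were paralogues, *Eef1a1* at 1.98 and the muscle and nerve form *Eef1a2* at -1.26. Of 3 termination factor genes 2 were higher, led by *Etf1* at 1.26. Both mitochondrial initiation factor genes were lower, *Mtif2* at -0.84 and *Mtif3* at -0.53. Of 77 cytosolic ribosomal protein genes 73 were higher and 1 lower, with a median of 0.54, from *Rps2* at -0.41 to *Rpl3* at 1.78. Set beside these, 9 of 49 initiation factor genes (18.4%) were lower, against 1 of 77 ribosomal protein genes (1.3%) and 28.4% of all genes. These differences were not tested, and the share of the initiation factor genes was below that of all genes.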

How the data were processed

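Total RNA libraries (paired-end TruSeq) of 8 mouse hearts were used, 4 per genotype, grouped by the sample labels. The study states 4 animals per group, and p-values measure the spread between these samples. The authors aligned pairs to mm10 with HISAT2 2.10, kept proper primary pairs, ran featureCounts 1.6.3 strand-wise on Ensembl GRCm38 models, and the stated options (-C -p -B -P -s 2) set neither multi-mapping nor multi-overlapping pairs to be counted, which by default leaves such pairs out. The deposited values are a signal, gene counts that the authors divided by a DESeq2 size factor (DESeq2 1.18.1, R 3.5.1). Pairs were recovered from the size of 1 pair, and 100% of values came out whole within 0.01. Columns of the authors' own comparison (fold changes, p-values) were not used. Members, lists and tests were chosen with earlier results of these data known.

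Log2(normalised count + 1) was fitted by limma-trend (limma 3.58.1, R 4.3.3) with genotype as the only term, two-sided, for 17046 genes with a mean of at least 10, and called at a Benjamini-Hochberg adjusted p under 0.05. The pseudocount understates changes of low genes. Changes are knockout minus wild type. Ratios within libraries, taken as differences of log2(normalised count + 1), were tested by exact permutation, two-sided. Any member could be named. Values in each library are given for members changed by at least 1, for the 4E-BP genes and a few members fixed by name, and for the extremes of each complex. *Eif4g2* is shown likewise, chosen after its values were seen. Of other lists only the largest rise and fall are named. Alternatives were other scalings, edgeR 4.0.16 and DESeq2 1.42.0 on recovered pairs, other pseudocounts and filters, a replicate block and each library left out. The fits were tried on simulated data in which few genes changed. That setting does not show how they behave with the many calls and the scaling shifts found here. Exon lengths, each the union of all annotated exons of a gene, came from GENCODE M21, where 48 of 51 members had the same start and end.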

Additional observations from a re-analysis of the deposited data

Results flagged for a closer look

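Among 98 groups of 4 libraries, 2 held a library far from the other 3 by Dixon's test, which chance does in about 1 of 20 groups. The second wild type library was low for *Eif2s3x*, at 1085.6 normalised counts against 1153 to 1165 in the others. The first wild type library was high for *Eif5*, at 4075 against 3878 to 3909. Both genes were higher in each knockout library than in each wild type library.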

How the results depend on the processing

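All 30 members that were higher kept that call under every alternative except without the fourth wild type library, where *Eif2a* lost it and 29 remained. Counts of calls moved with the scaling, whose shift of the median gene is given above. With equal nuclear totals 5 of the 9 lower members stayed lower (*Eif3f*, *Eif4a2*, *Eif4e*, *Eif4e3* and *Eif4ebp2*), and 4 log2 changes turned positive, *Eif1* to 0.23, *Eif3m* to 0.20, *Eif4g2* to 0.21 and *Eif5b* to 0.0110. With equal library totals 49 members and 14952 of all genes were higher, 0 members and 567 genes were lower by limma-trend, and *Eif1* (1.44), *Eif1ax* (1.17), *Eif1b* (0.999), *Eif3f* (0.93), *Eif3m* (1.42), *Eif4a2* (0.72), *Eif4e* (0.40), *Eif4e3* (0.70), *Eif4g1* (1.20), *Eif4g2* (1.42), *Eif4ebp2* (0.64) and *Eif5b* (1.22) were positive. With TMM scaling *Eif1* (0.0345), *Eif3m* (0.0101) and *Eif4g2* (0.0127), none of them called, turned sign, *Eif5b* lost its call and *Eif2b4* was called higher (0.17, adjusted p = 0.0379). Leaving out 1 library at a time, 3 uncalled genes changed sign, *Eif1* between -0.0491 and 0.0443, *Eif2s3y* between -0.0907 and 0.115 and *Eif3m* between -0.0532 and 0.00826. Calls of higher were added for *Eif3k* without the fourth wild type library (adjusted p = 0.0461) and for *Eif4a3* and *Eif4g3* without the third knockout library (0.0402 and 0.0264). *Eif5b* also lost its call without the filter on low values (adjusted p = 0.0699). The count tests of edgeR and DESeq2 and both other pseudocounts kept all 39 calls. Same-numbered libraries did not deviate together (correlations of -0.07 to 0.04). These values gave no sign of pairing by number but cannot exclude it. With a replicate block 31 members were higher and 9 lower, *Eif4g3* being added (adjusted p = 0.0311). Fewer pairs on nuclear genes in wild type limit the low genes *Eif4ebp3*, *Eif3j2* and *Eif5a2* most.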
